A study of Homo sapiens with 6 samples.

Results

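The genes described here build and run mitosis: 59 genes of the spindle checkpoint, the CDK1 engine, the anaphase-promoting complex (APC/C), the mitotic kinases, the kinesins and spindle, the kinetochore, condensin, cohesin and separase. They were chosen by function as a list, with earlier results of these data known. Each was read through its brightest probe set among those annotated to that gene alone. All 59 had such a probe set, out of 11963 genes with one on the array. HL60, an established human promyelocytic leukemia line, was grown for 5 days with tretinoin, a retinoic acid that binds the retinoic acid receptors, at 1 μmol/l or with the vehicle dimethyl sulfoxide (DMSO) alone, and both conditions held DMSO at 0.1%. Each condition was hybridized to 3 Affymetrix HG-U133A arrays, which by the study's account received pooled labeled product, so p-values measure the spread between hybridizations and not between cultures. HL60 is 1 line, and the number of arrays limits the precision.

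When a cell divides, CDK1 bound to cyclin B drives it into mitosis, condensin compacts the chromosomes, and microtubules attach to each centromere through the kinetochore. Unattached kinetochores feed the spindle checkpoint, which holds the APC/C back by sequestering its activator CDC20. Once every chromosome is attached, the APC/C marks securin and cyclin B for destruction, and the freed separase cuts the cohesin rings that hold sister chromatids together. Transcripts of most of these genes are known to peak late in the cell cycle and to be low in cells that have stopped dividing. HL60 cells are known to leave the cell cycle as they mature under tretinoin.

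After scaling to a common mean, between 54.9% and 60.1% of probe sets exceeded a signal of 20 on each array. Correlations of log2 signal over probe sets, which are not independent replicates, ran from 0.957 to 0.975 within a condition and from 0.849 to 0.861 between conditions. The labelled cell type was checked with promyelocyte markers: all 6 measured genes (MPO, ELANE, PRTN3, CTSG, AZU1 and MYB) exceeded 20 on every DMSO array, and 3 did on every tretinoin array. Their summed scaled signal was 4160 to 4700 in DMSO and 311 to 369 in tretinoin. For B cells, T cells, erythroid cells, megakaryocytes, epithelium and fibroblasts, between 0 and 2 markers of each list exceeded 20 on every DMSO array. The summed signals of those 6 lists overlapped between the conditions or were at the lower limit in both. On control probe sets for ACTB, the 3′ to 5′ ratio of signal, which reads how intact the RNA and its labeling are, was 1.38 to 1.42 in DMSO and 1.14 to 1.17 in tretinoin. The same ratio for GAPDH overlapped, at 1.06 to 1.17 in DMSO and 1.15 to 1.19 in tretinoin. The part of the ACTB difference in the results was not tested.

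Many promoters of mitotic genes are known to carry a CHR element (cell cycle genes homology region), a short stretch at the transcription start through which the MuvB complexes act. RefSeq promoter windows of 300 bases, from 250 before to 50 after the annotated start on GRCh38.p14, were at hand for 51 of the 59 genes. They were searched on both strands for TTTGAA (read as TTCAAA on the other strand) and TTCGAA. Other forms of the element were not searched, so a window without a match is not shown to lack it. A match stood in 30 of the 51 windows (58.8%), against 4539 of all 27305 windows of the table (16.6%). Among mitotic genes outside the list, described below, 41 of 103 windows (39.8%) held one. From 100 bases before the start onward, the shares were 51.0% of the members, 32.0% of those other mitotic genes and 7.43% of all windows. CCAAT, read as ATTGG on the other strand, is the site of the factor NF-Y. It stood in 68.6% of the members' windows, 55.3% of those of the other mitotic genes and 35.7% of all. Stretches of 30 bases are shown for 12 genes with a match close to the start, because the results return to them. They were chosen after the array values were seen, to cover the roles and to include KIF4A and CENPA, which were not called. Capitals mark the match, and the strand is that of the gene.
MAD2L1, chr4:120066807-120066836, minus strand: tgcgtcgttactTTTGAAacgcttggcggg
BUB1, chr2:110678045-110678074, minus strand: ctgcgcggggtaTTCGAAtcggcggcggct
BUB1B, chr15:40161034-40161063, plus strand: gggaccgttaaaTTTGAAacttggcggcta
CCNB2, chr15:59105105-59105134, plus strand: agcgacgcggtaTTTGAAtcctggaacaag
CKS1B, chr1:154974639-154974668, plus strand: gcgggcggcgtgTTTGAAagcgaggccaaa
CKS2, chr9:89311154-89311183, plus strand: cgggctgtcggaTTCAAAtccggatcgttg
PLK1, chr16:23678848-23678877, plus strand: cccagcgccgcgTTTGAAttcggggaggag
KIF11, chr10:92593090-92593119, plus strand: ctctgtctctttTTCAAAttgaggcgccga
NCAPG, chr4:17810932-17810961, plus strand: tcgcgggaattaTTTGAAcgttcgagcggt
ESPL1, chr12:53268256-53268285, plus strand: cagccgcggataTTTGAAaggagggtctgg
KIF4A, chrX:70290058-70290087, plus strand: ctccgggacggaTTTGAAacttggcggtta
CENPA, chr2:26786026-26786055, plus strand: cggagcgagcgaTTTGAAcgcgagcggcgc

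In KIF11, CKS2, PLK1 and CCNB2 the first base of the match lies 28 or 29 bases before the start, counting the base before the start as -1. In NCAPG it lies at -35 and in BUB1, MAD2L1 and CENPA at 2, 25 and -18. The stretch of bases from 50 before the start to the start itself held a match in 15 members (29.4%), against 2.74% of all windows. The next 50 bases held one in 9 members (17.6%), against 2.45%.

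**Figure D1:**
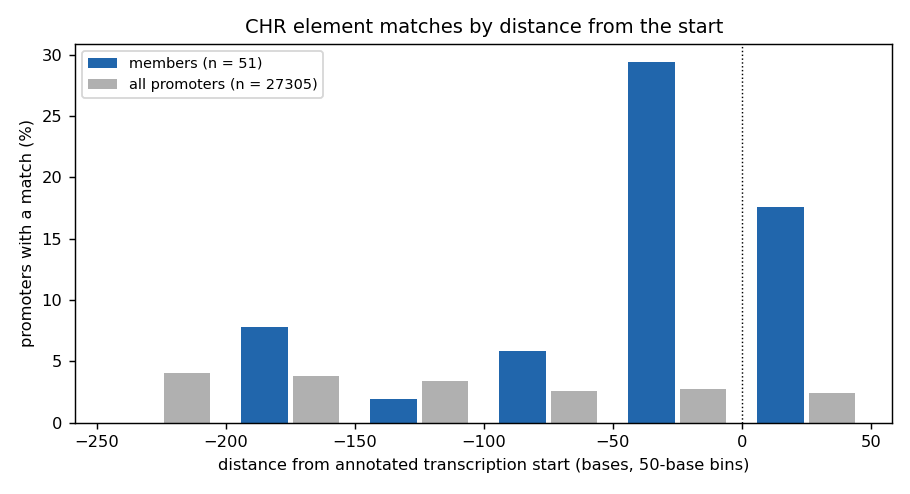
Share of promoter windows with a CHR element match (vertical axis, percent) by distance from the annotated start (horizontal axis, bases in bins of 50), for 51 mitotic genes and all 27305 windows of the RefSeq table. The members' bars stand highest in the 2 bins next to the start, at 29.4% and 17.6%, while the bars of all windows stay between 2.45% and 4.06%.

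Mitotic transcripts were lower after tretinoin in nearly every role. Of 58 members tested, 41 (70.7%) fell and none rose, by limma at an adjusted p under 0.05 and a change of at least 1.5-fold. Over all 8151 genes tested, 14.4% were called lower and 13.6% higher. The remaining 17 members were not called, and KIF23, a kinesin of the cytokinetic midzone, exceeded 20 on 2 arrays and was not tested. At an unadjusted p under 0.05, 48 members were lower and 0 higher. That rule has no minimum fold, and the share of all genes passing it was not computed, so these counts have no background. The members' median log2 change was -0.80 (range -2.12 to 0.06), beside a median of -0.04 over all genes. On 51 members every tretinoin array lay below every DMSO array, a pattern that 24.8% of all tested genes showed. Those 51 comprise all 41 called members and 10 of the 17 not called. On no member did every tretinoin array lie above every DMSO array, as it did for 21.6% of all tested genes. In RNA from a whole culture, fewer cells in mitosis and less mitotic RNA per cell cannot be told apart.

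Most of the falls were modest. Of the 41 called members, 18 were at least 2-fold lower, and the called folds ran from 1.51 to 4.34. The members not called had log2 changes from -0.72 to 0.06. Signals in what follows are scaled signals of a probe set, with a lower limit of 20, and are compared between conditions only. A fold is a ratio of condition means, and is given as "at least" wherever an array of the lower condition stood at that limit. The 1.5-fold threshold of a call was applied to the fitted log2 change and not to this ratio. By brightness in DMSO, 4 of the 8 members at or under 50 were called, 12 of the 20 up to 100 and 25 of the 30 above 100. The shares of all tested genes by brightness were not computed, so this order is not a result about the members.

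**Figure D2:**
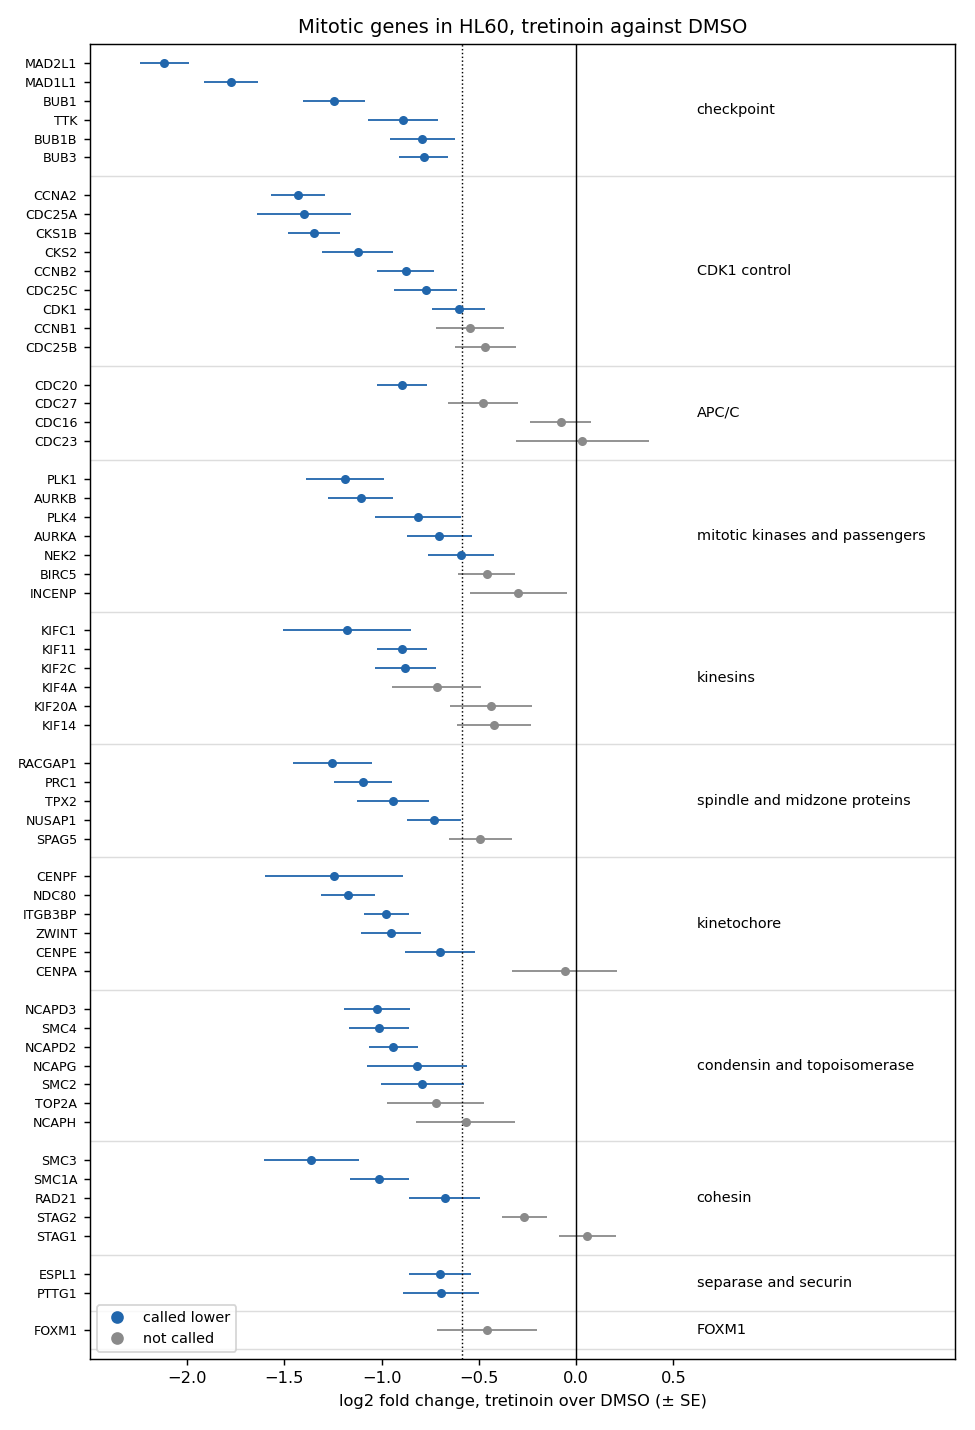
Log2 fold change of tretinoin over DMSO (horizontal axis) with its standard error for the 58 tested genes, grouped by role, on the brightest probe set of each. Colour separates the 41 genes called lower from the 17 not called, the dotted line marks a 1.5-fold fall, and 56 of the 58 points lie left of 0.

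The spindle checkpoint fell as a whole, with all 6 members called and a median log2 change of -1.07. MAD2L1, which binds and holds back CDC20, gave 206, 218 and 232 in DMSO and 51.6, 46.6 and 53.0 in tretinoin. The groups stood far apart, and the 4.34-fold fall was the largest among the members (log2 -2.12 ± 0.13 SE, adjusted p = 6e-05). MAD1L1, the kinetochore anchor that hands MAD2 on, gave 103, 106 and 113 in DMSO and 27.3, 33.7 and 33.5 in tretinoin. Its groups did not overlap either, with a 3.40-fold fall (log2 -1.77 ± 0.14, adjusted p = 0.000157). BUB1, the checkpoint kinase that recruits the others to the kinetochore, fell 2.36-fold, from 81.8 ± 6.78 to 34.7 ± 5.37 (mean ± SD, n = 3 arrays each, as below). BUB1B (BubR1), a part of the inhibitor that binds CDC20, fell 1.73-fold from 130.1 ± 19.8 to 75.0 ± 9.28. BUB3, its partner, fell 1.72-fold from 456 ± 21.9 to 265 ± 20.9. The brightest BUB3 probe set is of a type that can pick up related transcripts, and 3 of the 4 BUB3 probe sets were called. TTK, the kinase that starts the signal, fell 1.86-fold from 60.5 ± 10.5 to 32.5 ± 4.07. Of the checkpoint genes with a promoter window, MAD2L1, BUB1 and BUB1B hold a CHR match in the stretches shown above, and MAD1L1 holds none.

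MAD2L1 and the kinetochore gene ITGB3BP were also among the transcripts that the study picked on these arrays for its ligation-mediated amplification assay, so their direction here is not independent evidence. In that assay 2 oligonucleotides are joined where they lie side by side on the transcript's cDNA. The gene-specific parts of both pairs are shown because they mark which stretch of each transcript the study chose to read, and the capital is the base at the junction.
MAD2L1 upstream probe: ttcctaaatcagatgttttG
MAD2L1 downstream probe: Gtcaagtagtttgactcagt
ITGB3BP upstream probe: tgaggcattaagaagaaatG
ITGB3BP downstream probe: Cactcaccatgagcaccaac

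Among the regulators of CDK1, 7 of 9 fell, and the median log2 change was -0.88. CDC25A, a phosphatase that activates cyclin-dependent kinases, gave 36.8, 55.6 and 71.9 in DMSO and was at the limit of 20 on all 3 tretinoin arrays. Its fall was at least 2.74-fold (adjusted p = 0.0044), and the gene is not tested when any DMSO array is left out. The limit hides the spread in tretinoin, so that p-value does not measure it. CCNA2 (cyclin A2), which acts from S phase into early mitosis, gave 119, 134 and 147 in DMSO and 53.9, 47.6 and 46.7 in tretinoin. That is a 2.70-fold fall (log2 -1.43 ± 0.14, adjusted p = 0.000369), and the groups stood well apart. The small CDK-binding subunits fell together: CKS1B 2.54-fold, from 284 ± 22.6 to 112 ± 9.02, and CKS2 2.15-fold, from 379 ± 28.4 to 176 ± 35.3.

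The kinase CDK1 fell on all 3 of its probe sets. The brightest fell 1.51-fold, from 156 ± 7.68 to 103 ± 11.9 (adjusted p = 0.0147), and its call was lost without DMSO replicate 3, where the fitted change was under 1.5-fold, and without tretinoin replicate 1 (adjusted p = 0.0514). A CDK1 probe set of much the same DMSO signal fell 2.16-fold, from 157 ± 44.1 to 72.4 ± 16.7 (adjusted p = 0.0166), and the third 1.56-fold. CCNB2 (cyclin B2) fell 1.84-fold, from 180.2 ± 22.2 to 97.9 ± 9.10. CCNB1 (cyclin B1), the main mitotic partner of CDK1, missed both thresholds of a call. It gave 71.7, 64.3 and 71.3 in DMSO and 54.4, 37.5 and 51.7 in tretinoin, with no overlap. Its log2 difference of -0.55 ± 0.17 is under 1.5-fold, and its adjusted p was 0.0504. Of the phosphatases that switch CDK1 on, CDC25C fell at least 1.73-fold from 36.3 ± 6.75 to a tretinoin mean of 21.0 ± 0.88, with 1 tretinoin array at the limit. CDC25B stood at 127 ± 3.61 in DMSO and 93.2 ± 16.2 in tretinoin and was not called (adjusted p = 0.0612), but was called without tretinoin replicate 2 (adjusted p = 0.0222).

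Of the APC/C members, 1 of 4 was called. CDC20, the activator that the checkpoint holds, gave 175, 186 and 166 in DMSO and 90.9, 103 and 89.9 in tretinoin, a 1.86-fold fall (log2 -0.90 ± 0.13, adjusted p = 0.0019). The 3 core subunits on the list were not called. CDC27 gave 70.5, 77.2 and 62.5 in DMSO and 46.0, 63.0 and 43.5 in tretinoin (log2 -0.48 ± 0.18, adjusted p = 0.0884). One tretinoin array of CDC27 overlapped the DMSO range, and without that array, replicate 2, CDC27 was called (adjusted p = 0.0219), which brings the count in this group from 1 to 2. CDC16 gave 137, 157 and 117 in DMSO and 131, 141 and 116 in tretinoin (log2 -0.08 ± 0.16, adjusted p = 0.758). CDC23 gave 54.5, 23.3 and 48.3 in DMSO and 32.6, 51.1 and 39.2 in tretinoin (log2 0.03 ± 0.34, adjusted p = 0.961). The arrays of CDC16 and CDC23 were mixed between the conditions, and the difference between CDC20 and these subunits was itself not tested. Among core subunits outside the list, ANAPC5 fell 1.76-fold, from 451 ± 8.78 to 256 ± 16.3 (adjusted p = 0.00219), with 3 of its 4 probe sets called. ANAPC10 fell at least 1.71-fold, from 38.3 ± 5.21 to a tretinoin mean of 22.4 ± 2.20 (adjusted p = 0.0085). ANAPC2 and ANAPC13 were not called. The core as measured therefore held called and uncalled subunits.

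Of the mitotic kinases and the passenger proteins that travel with Aurora B, 5 of 7 fell, with a median log2 change of -0.70. PLK1, the polo kinase of mitotic entry, spindle assembly and cytokinesis, gave 95.8, 88.0 and 65.0 in DMSO and 39.1, 39.96 and 29.6 in tretinoin, a 2.29-fold fall (log2 -1.19 ± 0.20, adjusted p = 0.00408). AURKB (Aurora B), which releases wrongly attached microtubules, gave 56.7, 71.3 and 60.8 in DMSO and 26.4, 26.6 and 35.0 in tretinoin, a 2.15-fold fall (log2 -1.11 ± 0.17, adjusted p = 0.00259). Both genes kept their arrays apart by condition. The partners of Aurora B on the list were not called: INCENP, the scaffold of the complex, was at 28.5 ± 7.48 and 22.9 ± 5.07, with arrays at the limit in both conditions (adjusted p = 0.428), and BIRC5 (survivin) at 145 ± 12.8 and 105.9 ± 13.7 (adjusted p = 0.0515). The further BIRC5 probe sets, described with the other repeated genes, were called. CDCA8 (borealin), the remaining partner, is outside the list. It fell at least 3.42-fold, from 54.4, 60.9 and 89.9 in DMSO to the limit on all tretinoin arrays (adjusted p = 0.000755). CDCA8 was tested through its DMSO arrays alone, and the limit hides the spread in tretinoin, so that p-value does not measure it.

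AURKA (Aurora A), the kinase of the spindle poles, fell 1.64-fold from 141 ± 25.9 to 86.0 ± 6.57. PLK4, which starts centriole duplication, fell 1.71-fold from 59.7 ± 4.11 to 34.8 ± 9.21, and NEK2, a centrosomal kinase, 1.52-fold from 49.7 ± 9.12 to 32.6 ± 2.05. These 3 calls rested on few arrays: AURKA and PLK4 each lost the call without any one of 4 of the 6 arrays, and NEK2 without any one of 5. The count for the group was 2 without DMSO replicate 1, DMSO replicate 3 or tretinoin replicate 1, and 3 without tretinoin replicate 3.

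Of 6 kinesins tested, 3 fell, and the median log2 change was -0.80. KIFC1, a motor that bundles microtubules toward the poles, gave 63.5, 82.9 and 69.7 in DMSO and 30.8, 20 and 51.5 in tretinoin, the second at the limit. Its fall was at least 2.11-fold (log2 -1.18 ± 0.33, adjusted p = 0.0322), and the call was lost without any one of 5 of the 6 arrays. KIF11 (Eg5), the motor that pushes spindle poles apart, gave 64.0, 62.2 and 72.4 in DMSO and 36.6, 33.5 and 36.5 in tretinoin. The KIF11 arrays separated cleanly, with a 1.86-fold fall (log2 -0.90 ± 0.13, adjusted p = 0.0019). KIF2C (MCAK), which depolymerizes microtubules at centromeres, fell 1.84-fold from 157 ± 20.1 to 85.2 ± 9.69.

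The motors of the chromosome arms and the midzone were not called. KIF4A, a chromosome-bound kinesin, stood at 69.9 ± 5.87 and 43.9 ± 14.4 (log2 -0.72 ± 0.23, adjusted p = 0.0516) and was called without tretinoin replicate 2 (adjusted p = 0.00459). KIF14 stood at 79.3 ± 3.67 and 60.3 ± 13.6 (adjusted p = 0.143), and KIF20A at 54.8 ± 8.84 and 40.8 ± 8.68 (adjusted p = 0.161). Both act in cytokinesis, as does KIF23, which read 23.6, 21.8 and 20 in DMSO and 20 on all tretinoin arrays and could not be judged.

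Of the proteins that shape the spindle and its midzone, 4 of 5 fell, with a median log2 change of -0.94. RACGAP1, the centralspindlin subunit that positions the cleavage furrow, gave 97.8, 93.8 and 116 in DMSO and 47.7, 32.2 and 51.0 in tretinoin, a 2.35-fold fall (log2 -1.25 ± 0.20, adjusted p = 0.00353). PRC1, which crosslinks midzone microtubules, gave 164.5, 142 and 149 in DMSO and 74.4, 79.4 and 60.6 in tretinoin, a 2.13-fold fall (log2 -1.10 ± 0.15, adjusted p = 0.00166). These midzone proteins fell although their motor partners KIF4A and KIF23 were not called or not tested, and the difference between them was not tested. TPX2, the activator of Aurora A, gave 153, 136 and 183 in DMSO and 85.9, 93.7 and 66.6 in tretinoin, a 1.92-fold fall (adjusted p = 0.0077). NUSAP1, a microtubule-binding protein, gave 212, 199 and 169 in DMSO and 109, 124 and 116 in tretinoin, a 1.66-fold fall (adjusted p = 0.00709). SPAG5 (astrin), which steadies spindle poles and kinetochore attachments, gave 80.4, 74.4 and 68.7 in DMSO and 54.5, 61.4 and 43.9 in tretinoin. Its groups did not overlap, but it was not called (log2 -0.49 ± 0.16, adjusted p = 0.0564) unless tretinoin replicate 2 was left out (adjusted p = 0.0346).

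At the kinetochore, 5 of 6 members fell, and the median log2 change was -0.96. NDC80, the core microtubule-binding subunit, gave 50.4, 46.9 and 55.0 in DMSO and 24.6, 20 and 23.0 in tretinoin, the second at the limit, a fall of at least 2.25-fold (log2 -1.17 ± 0.14, adjusted p = 0.00086). CENPF, a large outer kinetochore protein, gave 131, 102 and 80.1 in DMSO and 25.2, 51.4 and 62.0 in tretinoin, a 2.26-fold fall. The CENPF arrays spread more widely than the others of this group (log2 -1.25 ± 0.36, adjusted p = 0.0341), and the call was lost without DMSO replicate 1, DMSO replicate 2 or tretinoin replicate 2. ITGB3BP (CENP-R), a protein of the constitutive centromere network, gave 112, 109 and 111 in DMSO and 57.3, 57.6 and 53.4 in tretinoin. It had the smallest standard error of the group, with a 1.97-fold fall (log2 -0.98 ± 0.12, adjusted p = 0.000839).

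ZWINT, which links the outer kinetochore to the checkpoint, fell 1.93-fold from 277 ± 26.2 to 144 ± 19.7. CENPE, a kinesin that moves chromosomes to the spindle equator, fell 1.60-fold from 47.4 ± 4.09 to 29.6 ± 6.13, and lost its call without any one of 4 of the 6 arrays. CENPA, the histone variant that marks the centromere, showed no called change: it gave 83.6, 41.6 and 72.1 in DMSO and 52.1, 63.4 and 67.3 in tretinoin, fully mixed (log2 -0.06 ± 0.27, adjusted p = 0.901). Its brightest probe set is of a type that can pick up related transcripts, and its promoter stretch above holds a match at -18. The count for the kinetochore was 3 without DMSO replicate 1 or without tretinoin replicate 2.

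Subunits of both condensin complexes fell. With topoisomerase IIα included, 5 of 7 members were called, with a median log2 change of -0.82. NCAPD3, a subunit of condensin II, which acts from within the nucleus in early prophase, gave 77.5, 70.7 and 82.3 in DMSO and 36.2, 31.9 and 46.3 in tretinoin, a 2.01-fold fall (log2 -1.03 ± 0.17, adjusted p = 0.0038). SMC4, an ATPase arm shared by both complexes, gave 203, 208 and 181 in DMSO and 103, 81.8 and 110.4 in tretinoin, also a 2.01-fold fall (log2 -1.01 ± 0.16, adjusted p = 0.00276). In both genes every tretinoin array lay well under the DMSO arrays. SMC2, the other arm, fell at least 1.70-fold from 40.6 ± 4.67 to 23.9 ± 6.77, with 2 tretinoin arrays at the limit.

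Of the condensin I subunits, NCAPD2 fell 1.92-fold from 76.1 ± 5.35 to 39.6 ± 2.57 and NCAPG 1.70-fold from 63.0 ± 6.36 to 37.0 ± 11.5. NCAPH, the kleisin that closes the ring, stood at 32.3 ± 12.4 and 20.8 ± 0.74 and was not called (adjusted p = 0.138). TOP2A, which untangles the sister DNAs that condensin compacts, gave 183, 168 and 225 in DMSO and 81.4, 152 and 125 in tretinoin. It was not called (log2 -0.72 ± 0.25, adjusted p = 0.0657) unless tretinoin replicate 2 was left out (adjusted p = 0.0311). SMC2 lost its call without any one of 5 of the 6 arrays and NCAPG without any one of 4, and the count for the group was 3 without DMSO replicate 1, 2 or 3 or tretinoin replicate 1.

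In cohesin, the 3 subunits that close the ring fell and the 2 that sit on it were not called. SMC3, one ATPase arm, gave 113, 119 and 114 in DMSO and 61.3, 31.1 and 47.2 in tretinoin, a 2.48-fold fall (log2 -1.36 ± 0.24, adjusted p = 0.00525). SMC1A, the other arm, gave 266, 223 and 267 in DMSO and 109, 140.2 and 125 in tretinoin, a 2.02-fold fall (log2 -1.01 ± 0.15, adjusted p = 0.00239). On these probe sets every tretinoin array of both arms lay below the DMSO arrays. The further tested SMC3 probe set was not called, at 73.1, 107 and 78.9 in DMSO and 41.9, 69.0 and 72.6 in tretinoin, 1.41-fold apart without overlap (adjusted p = 0.173). RAD21, the kleisin that separase cuts, gave 154, 207 and 184 in DMSO and 138, 103 and 100.3 in tretinoin, a 1.59-fold fall (log2 -0.68 ± 0.18, adjusted p = 0.0288) that lost its call without any one of 4 of the 6 arrays. STAG1 gave 65.8, 60.7 and 53.5 in DMSO and 62.2, 55.6 and 69.6 in tretinoin (log2 0.06 ± 0.15, adjusted p = 0.812). STAG2 gave 260.3, 245 and 258 in DMSO and 215, 209.9 and 209 in tretinoin (log2 -0.27 ± 0.11, adjusted p = 0.124). STAG1 and STAG2 are alternative subunits that dock regulators onto the ring. The STAG1 arrays overlapped, those of STAG2 did not, and whether the ring and the STAG subunits differ from each other was not tested. Cohesin is also known to shape chromatin outside mitosis.

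Separase and its inhibitor both fell. ESPL1 (separase) gave 112, 108 and 112 in DMSO and 78.6, 72.6 and 55.8 in tretinoin, a 1.61-fold fall (log2 -0.70 ± 0.16, adjusted p = 0.0145). PTTG1 (securin) gave 441, 438 and 583 in DMSO and 251, 368 and 286 in tretinoin, also a 1.61-fold fall (log2 -0.70 ± 0.20, adjusted p = 0.0322). PTTG1 has a near-identical copy, PTTG2, and its probe set can pick up related transcripts, so its value is uncertain. The PTTG2 probe set itself stood at the limit of 20 on every array and was not tested. PTTG1 lost its call without any one of 5 of the 6 arrays. The count for this pair was 1 without DMSO replicate 1, 2 or 3 or tretinoin replicate 1, and 0 without tretinoin replicate 3, where ESPL1 was under 1.5-fold. FOXM1, a transcription factor of late cell cycle genes, gave 40.8, 44.8 and 39.1 in DMSO and 36.3, 20 and 38.1 in tretinoin. Every tretinoin array of FOXM1 was below the DMSO arrays, the second at the limit, and it was not called (log2 -0.46 ± 0.26, adjusted p = 0.228). The only FOXM1 probe set is also of a type that can pick up related transcripts.

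**Figure D3:**
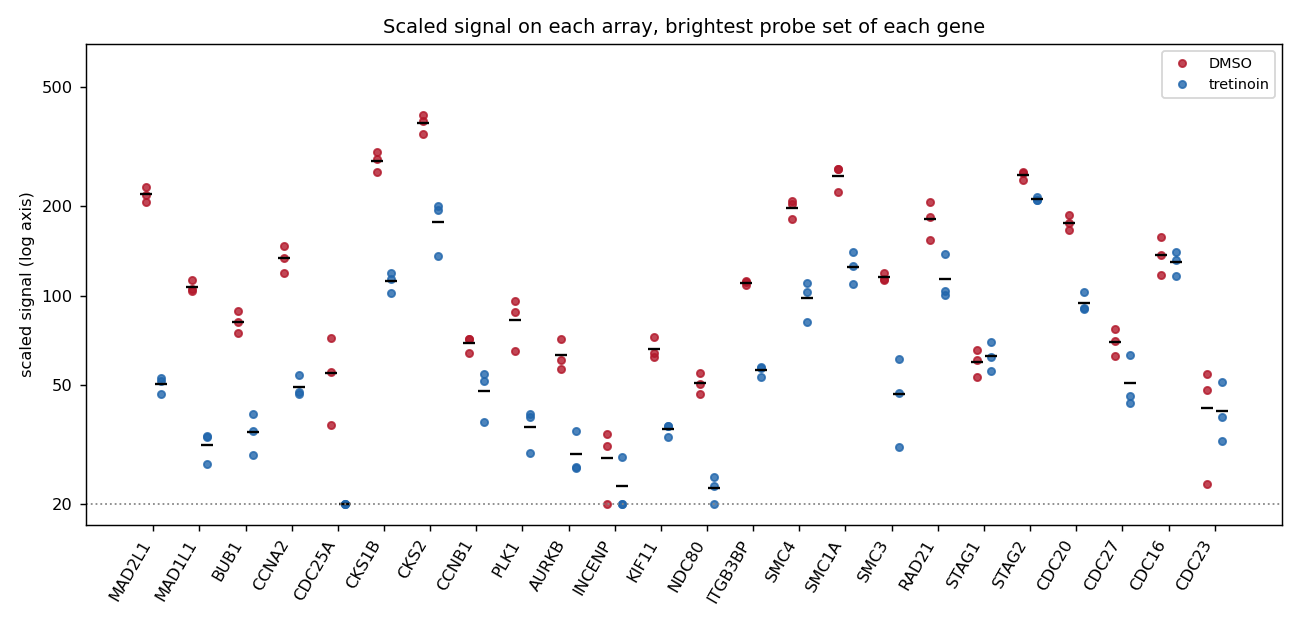
Scaled signal (log axis) of 24 mitotic genes on each of the 3 DMSO and 3 tretinoin arrays, with black bars at the condition means and a dotted line at the lower limit of 20. MAD2L1, MAD1L1 and CCNA2 show wide gaps between the conditions, CDC25A lies on the limit in tretinoin, and the points of CDC16, CDC23 and STAG1 are mixed.

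Several genes were read by more than 1 probe set. The 59 genes had 101 single-gene probe sets, of which 87 were tested, 54 were called lower and 0 higher. Over all 13349 tested probe sets, 13.8% were called lower and 13.6% higher. At an unadjusted p under 0.05, 1 probe set of a member was higher, a further one of STAG2. The share of all probe sets passing that looser rule was not computed. Among 20 genes with more than 1 tested probe set, every one was called lower in 5 genes, the calls were mixed between lower and not called in 12, and 3 genes (CDC16, STAG1 and STAG2) had none called. No gene had calls in both directions. The arrays did not overlap, with tretinoin lower, on 69 of the 87, against 24.3% of all probe sets, and on 1 (a STAG2 probe set) with tretinoin higher, against 21.7%.

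In 9 of the 12 mixed genes the brightest probe set was called and a further one was not: BUB3, CDC25A, AURKA, NEK2, NUSAP1, SMC2, SMC4, SMC3 and ESPL1. Besides SMC3, the further CDC25A probe set had a log2 change of -0.52 (adjusted p = 0.359), against -1.40 on the brightest, with arrays at the limit in both conditions. The further NEK2 probe set stood at 0.03 (adjusted p = 0.924). The further ESPL1 probe set had the larger change, -1.18, and an adjusted p of 0.0508.

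In the other 3 mixed genes, BIRC5, TOP2A and CDC27, the brightest probe set was not called and a further one was. For BIRC5, the further 2 probe sets fell by 1.33 and 1.04 on the log2 scale (2.48-fold and 2.03-fold), against -0.46 on the brightest, which is of the type that can pick up related transcripts. The further TOP2A probe set fell 1.85-fold, from 185 ± 7.19 to 100.1 ± 9.53 (adjusted p = 0.00209). For NCAPG, whose brightest probe set was barely called, the further one fell at least 2.96-fold, from 65.6 ± 0.69 to a tretinoin mean of 22.2 ± 1.98. The 4 CDC27 probe sets ran from -0.81 to 0.12 in log2 change, and 1 was called. STAG2 ran the other way on its further probe sets: one gave 93.3, 91.9 and 92.8 in DMSO and 114, 131 and 138 in tretinoin, all higher. That log2 difference of 0.46 ± 0.13 (adjusted p = 0.0321) is under 1.5-fold and was not called, and the other stood at 0.37 ± 0.23. The 3 STAG2 probe sets therefore differ in sign.

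**Figure D4:**
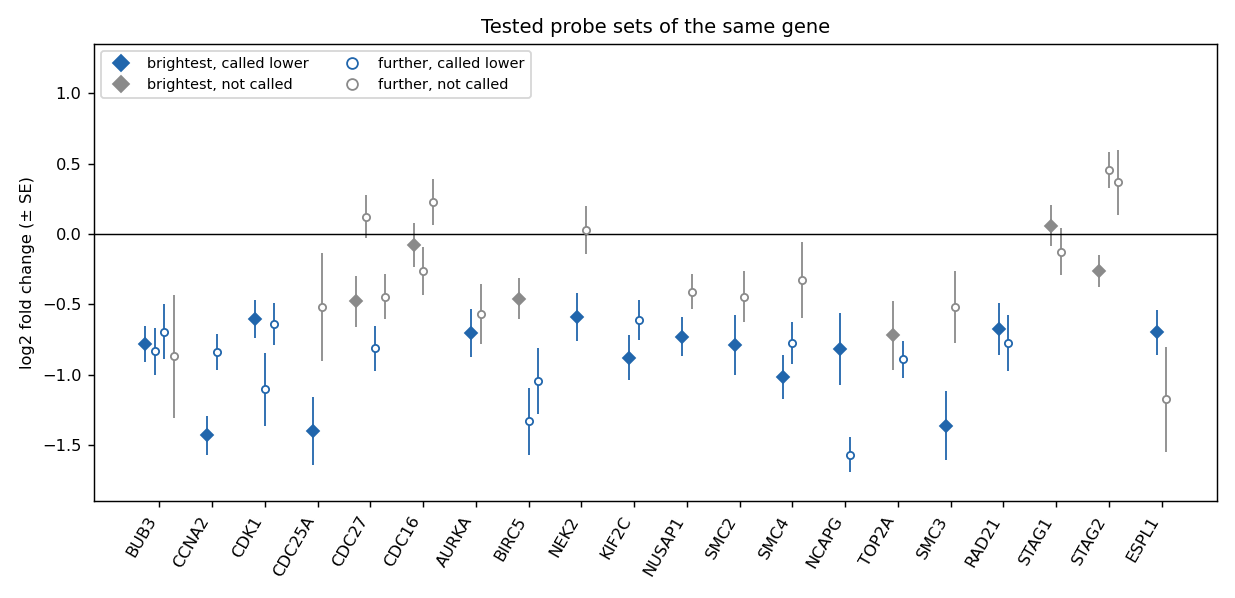
Log2 fold change of tretinoin over DMSO (vertical axis) with its standard error for each tested probe set of the 20 genes that have more than 1. Diamonds are the brightest probe set of a gene and open circles the further ones, coloured by call, and STAG2 shows its brightest at -0.27 and a further one at 0.46.

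The promoter matches were set beside the calls as a description. Of 29 tested members with a CHR match, 23 fell, with a median log2 change of -0.90. Of 21 tested members with a window and no match, 12 fell, with a median of -0.70. Read the other way, a match stood in 23 of 35 called members with a window (65.7%) and in 6 of 15 not called (40%). CCAAT had the opposite order, 60% of the called and 86.7% of those not called. None of these differences was tested. KIF4A and CENPA hold a match close to the start and were not called. The windows of MAD1L1 and CCNA2, with falls of 3.40-fold and 2.70-fold, hold no CHR match, and other forms of the element were not searched. The CCNA2 window holds CCAAT, read as ATTGG, and the MAD1L1 window does not.

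Mitotic genes outside the list fell in part. From a list of 118 such genes, 96 had a single-gene probe set and 89 were tested: 34 (38.2%) fell, 1 rose and 54 were not called, with a median log2 change of -0.44. The difference from the 70.7% among the members was not tested, and both lists were chosen with earlier results of these data known. On the brightest probe sets, the largest falls were those of WEE1, the kinase that restrains CDK1, which fell 5.00-fold from 160.2 ± 12.3 to 32.0 ± 8.20, and of CENPU, a centromere protein, which fell 4.37-fold from 439 ± 64.1 to 100.3 ± 12.1. UBE2S, which extends ubiquitin chains for the APC/C, fell 3.96-fold from 498 ± 61.8 to 126 ± 14.9. The other tested WEE1 probe set was not called, at 75.2 ± 15.1 and 50.5 ± 12.9, 1.49-fold apart (adjusted p = 0.102), with overlapping arrays. On the brightest probe sets the single rise was that of KIF5B, a kinesin that carries cargo along microtubules in interphase as well, from 209 ± 14.5 to 416 ± 58.8 (log2 0.99, adjusted p = 0.00253). Without DMSO replicate 2 or without tretinoin replicate 2, the count of rises was 2. Over all 125 tested probe sets of these genes, 43 were called lower and 6 higher, the 6 belonging to KIF5B, NIPBL and PPP2R5C. NIPBL, which loads cohesin onto DNA, rose on 3 of its 4 probe sets. The largest of its rises was at least 4.14-fold, from 20, 29.5 and 34.6 in DMSO to 124, 95.9 and 129 in tretinoin (adjusted p = 0.000675), and the others were 1.79-fold and 1.71-fold. Its brightest was not called (log2 0.32 ± 0.14, adjusted p = 0.143). PPP2R5C, a regulatory subunit of the phosphatase PP2A, rose 1.87-fold on a further probe set, from 33.9 ± 4.63 to 63.4 ± 5.09 (adjusted p = 0.0039), and was not called on its brightest.

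The calls differ in how firmly they stand. For 13 of the 41 called members, the call held under every alternative setting that gave them a value: BUB1, MAD2L1 and MAD1L1 of the checkpoint, CCNA2, CKS1B and CKS2 of the CDK1 group, PLK1, AURKB, PRC1, RACGAP1, SMC4, NCAPD3 and SMC1A. The other 28 lost the call under at least 1 of them, which for 23 includes a stricter minimum of 2-fold. With each array left out in turn, between 30 and 40 members were called lower and none higher. Among these fits, calls were gained only without tretinoin replicate 2, for CDC25B, CDC27, KIF4A, SPAG5 and TOP2A. That array had the lowest mean signal before scaling (91.3) and the largest scaling factor (1.36). Its part in these calls was not tested.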

How the data were processed

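Total RNA of HL60 cells was measured on 6 HG-U133A arrays, 3 per condition, grouped by title. The authors deposited linear MAS5 signal intensities for 22283 probe sets, per the labels, with the MAS5 version not given in the sources used here. The values were not yet scaled between arrays. Scaling by a factor, as here, multiplies noise near background too, and the lower limit of 20 understates falls of dim genes.

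A factor for each array (0.820 to 1.36) brought its mean signal to that of the first DMSO array. Signals under 20 were raised to 20 and taken to log2. The linear model had 1 mean per condition and used lmFit and eBayes of limma 3.58.1, with statmod 1.5.0 and R 4.3.3. The 13349 probe sets over 20 on at least 3 arrays were tested together, without the 68 Affymetrix control probe sets, with Benjamini-Hochberg adjustment. A call required an adjusted p under 0.05 and a fitted log2 change, the difference of mean log2 signals, of at least 1.5-fold. Gene names came from the platform annotation: 19071 probe sets name 1 gene, 1043 several and 2169 none. Symbols checked through Entrez needed 0 updates.

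The members and lists were chosen with earlier results of these data known. Values on every array are given for the 2 members of each role with the largest called fold, for all members of roles with up to 5, and for ITGB3BP and MAD2L1. The others are given by mean and SD. CCNB1, CENPA, TOP2A, ANAPC5, ANAPC10, CDCA8, NIPBL, PPP2R5C and the promoter stretches were picked after their values were seen, as were the further probe sets shown. Promoters are RefSeq windows, with 8 members (AURKA, BIRC5, BUB3, FOXM1, RACGAP1, RAD21, TPX2 and TTK) not analysed there. Protein motifs were not searched.

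Alternatives were other scaling, floors and filters, a log2 offset of 16, limma with trend or robust variances, a replicate block, other minimum folds, other probe sets per gene, and each array left out. The fit was tested on simulated data without dim probe sets and with falls of 2-fold or more. That test does not cover dim genes or smaller falls. The replicate numbers do not pair the arrays. Figures and motif searches used Python 3.11.15, numpy 2.4.6, pandas 2.3.3 and matplotlib 3.10.9.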

Additional observations from a re-analysis of the deposited data

How the results depend on the processing

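Under other settings the number of members called lower was 45 with no scaling, 41 with median scaling (39 of them shared), 42 with quantile normalization, 37 with a floor of 10, 29 with a floor of 40, 36 with an offset of 16, 31 with no filter, 38 with all 6 arrays over 20, 42 with trend, 40 with robust variances, 41 with no minimum fold, 42 with the mean of probe sets and 31 with the second brightest. It was 18 with a minimum of 2-fold and 30 to 40 with an array left out. Members tested numbered 58 in the main fit, 53 with the second brightest probe set and 50 with all 6 arrays over 20. None was called higher under any of these. The median log2 change was -0.99 with no scaling, which moved the median of all genes to -0.21, -0.70 with a floor of 40, -0.67 with the offset and -0.85 to -0.77 with an array left out.

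By role, a count is named here only where it differed from the main fit by more than 1.5-fold. Smaller shifts are left out, such as the loss of RAD21 from cohesin at the 2-fold minimum. With no scaling, 2 were called in the APC/C. A floor of 10 gave 3 in condensin. A floor of 40 gave 3 kinases, 2 at the kinetochore, 3 in condensin, 1 of separase and securin, and 19 other mitotic genes. No filter gave 2 kinases, 3 at the kinetochore, 3 in condensin and 1 of separase and securin. The second brightest probe set gave 3 kinases, 1 in cohesin and 1 of separase and securin. In cohesin, the second SMC1A probe set was not tested and that of SMC3 was not called. The 2-fold minimum gave 3 in the checkpoint, 4 in the CDK1 group, 0 in the APC/C, 2 kinases, 1 kinesin, 2 spindle proteins, 2 at the kinetochore, 2 in condensin, 0 of separase and securin, 14 other mitotic genes lower and 0 higher, and 4 further probe sets. Other mitotic genes called higher numbered 3 with no minimum fold, 2 with the mean of probe sets and 3 with the second brightest. With an array left out, the counts were 1 to 2 in the APC/C, 2 to 4 kinases, 3 to 5 at the kinetochore, 3 to 5 in condensin, 0 to 2 of separase and securin, and 1 to 2 other mitotic genes higher.

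Deviations of same-numbered arrays correlated at -0.027, -0.014 and 0.065, so the numbers give no pairing. With them as a replicate block, 33 members were called lower, with 3 kinases, 3 in condensin and 1 of separase and securin. Signs turned in genes or probe sets near 0: CDC23 at -0.17 with no scaling, -0.12 with a floor of 40 and -0.35 to 0.26 with an array left out, STAG1 at -0.14 with no scaling, -0.13 on its second probe set and -0.023 to 0.14 with an array left out, CENPA at -0.36 to 0.15 and CDC16 at -0.19 to 0.023 with an array left out. On the second brightest probe set, CDC27 stood at 0.12, NEK2 at 0.029 and STAG2 at 0.46. The cause was not tested in any of these. Signal over the floor limits CDC25A, CDC25C, INCENP, KIF23, KIFC1, NDC80, SMC2, NCAPH and FOXM1, the 9 members at 20 on some array.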
